A study of Mus musculus with 21 samples.

Results

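The genes described here make, carry, sense and remove retinoic acid. They are 9 genes chosen by symbol (Stra6, Aldh1a1, Aldh1a2, Aldh1a3, Crabp1, Crabp2, Rara, Rarb and Cyp26b1) out of 23827 rows in each table, and each of the 9 symbols had 1 row in every sample. RNA was sequenced from embryonic day 14.5 mouse forebrain and kidney in 21 samples, 3 in each of 7 groups. All embryos carried 1 copy of a tagged ribosomal protein gene, Gt(ROSA)26Sor-mCherry-Rpl10a+/-, that makes mCherry-Rpl10a only after Cre recombination, so that ribosome-bound RNA of the recombined cells can be pulled down (translating ribosome affinity purification, TRAP). With Sox2Cre+/-, which recombines the embryo proper, total RNA (transcriptome) and TRAP RNA (translatome) were taken from forebrain and from kidney, which gives 4 groups. With Cdh5CreERT2+/- and tamoxifen given to the mother, TRAP RNA came from endothelial cells (EC) of the forebrain and of the kidney. With Emx1Cre+/-, TRAP RNA came from the Emx1 lineage, neural cells of the dorsal telencephalon. A sample could hold organs of more than 1 embryo, the forebrain dissection took in some diencephalon, and the tagged line goes back to 1 targeted embryonic stem cell clone.

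Retinoic acid is made from vitamin A. Retinol enters cells through the membrane receptor STRA6, is oxidised to retinal by retinol dehydrogenases, and retinal is oxidised to retinoic acid by the ALDH1A enzymes. The CRABP proteins carry the acid inside the cell, the nuclear receptors RARA, RARB and RARG bind DNA with RXR partners and change transcription when it is bound, and CYP26 enzymes break it down. In the embryo, the meninges around the forebrain and the stroma of the kidney are known sources of the acid, and its target genes include Rarb itself and Cyp26a1.

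RAR and RXR bind 2 half-sites of 6 bases in tandem, a direct repeat. The promoters of Rarb and Cyp26a1 are shown because each held a DR5, the repeat with 5 bases between its half-sites, and that of Cyp26b1 because it is the member with the largest rise in kidney EC. Each run is the 250 bases before an annotated start in RefSeq on GRCm38.p6, read along the gene, and capitals mark the repeat.
Rarb, chr14:16575477-16575726, minus strand: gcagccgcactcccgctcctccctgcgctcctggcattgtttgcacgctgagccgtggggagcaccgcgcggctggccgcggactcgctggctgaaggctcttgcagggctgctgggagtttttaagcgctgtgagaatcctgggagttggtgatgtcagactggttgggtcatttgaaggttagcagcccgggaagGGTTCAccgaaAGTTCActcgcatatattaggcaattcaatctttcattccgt
Cyp26a1, chr19:37697558-37697807, plus strand: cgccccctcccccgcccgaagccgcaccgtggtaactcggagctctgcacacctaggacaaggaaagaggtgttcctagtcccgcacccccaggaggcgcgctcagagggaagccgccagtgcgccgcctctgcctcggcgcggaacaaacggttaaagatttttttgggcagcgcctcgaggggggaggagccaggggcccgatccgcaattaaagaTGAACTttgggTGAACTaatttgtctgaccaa
Cyp26b1, chr6:84593811-84594060, minus strand: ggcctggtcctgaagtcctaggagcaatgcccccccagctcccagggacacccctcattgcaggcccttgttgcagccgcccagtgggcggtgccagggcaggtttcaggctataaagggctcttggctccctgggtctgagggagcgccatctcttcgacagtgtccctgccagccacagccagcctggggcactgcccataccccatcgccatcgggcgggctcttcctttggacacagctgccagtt

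The half-sites searched, on both strands, were the 8 forms of AGNTNA and of GGNTNA in which the first N is G or T and the second N is C or G, in tandem with 1, 2 or 5 bases between them (DR1, DR2 and DR5). The Rarb repeat is a DR5 that lies 53 to 37 bases before the start on the gene's own strand, and the Cyp26a1 repeat is a DR5 on the other strand, 32 to 16 bases before the start. The window searched was 300 bases, from 250 before the start to 50 after it, so it runs past the bases shown. In Cyp26b1 neither a half-site nor a repeat was found in this window. RefSeq entries were matched for 7 of the 9 members (14 entries, all but Aldh1a3 and Crabp2), and Rarb was the only member with a repeat of any of the 3 spacings. On the list of other retinoid genes used below, Rxrg also held a DR1 (95 to 83 bases before the start) and Stra8 a DR2 (202 to 189 bases before), which are not shown. Over all 32851 promoters, 0.323% held a DR5, 0.609% a DR1, 0.472% a DR2 and 66.7% at least 1 half-site, so a single half-site is not specific. The match is a description of letters, and binding was not measured here.

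The reads counted on genes, summed over all rows, ranged from 21760652 to 79231692 per sample. The EC groups carried their label: all 8 endothelial markers were higher in every EC sample than in every translatome sample of the same organ, with a median fold of 17.6 in brain and 6.30 in kidney, and all 5 dorsal telencephalon markers were higher in the Emx1 samples, with a median fold of 2.11. Markers of other cells also moved, and the summed levels of several lists are given beside the results. The samples were run in several sequencing lanes per the study's sample table, and each of the EC groups and the Emx1 group had a lane of its own, so for these groups the population and the lane cannot be told apart. In the Sox2Cre groups, brain and kidney shared no lane in total RNA and none in TRAP RNA. Within each kind of RNA, organ and lane are therefore confounded too.

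Levels are given as RPKM, reads scaled by transcript length and library size as the authors computed them, so they can be compared between genes. The 9 genes spanned very different ranges over the 7 group means (n = 3 each). Aldh1a2 had the widest span, 501-fold, from 0.423 ± 0.010 RPKM (SD) in the Emx1 lineage to 212 ± 8.79 in the kidney transcriptome. The narrowest span was that of Rara, 5.89-fold, from 5.58 ± 0.447 in the Emx1 lineage to 32.8 ± 0.391 in the kidney translatome. Of the 9 genes, 6 had their lowest mean in the Emx1 lineage, and 7 had their highest mean in the kidney transcriptome or translatome. The exceptions at the top were Cyp26b1, highest in kidney EC, and Stra6, highest in brain EC.

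**Figure D1:**
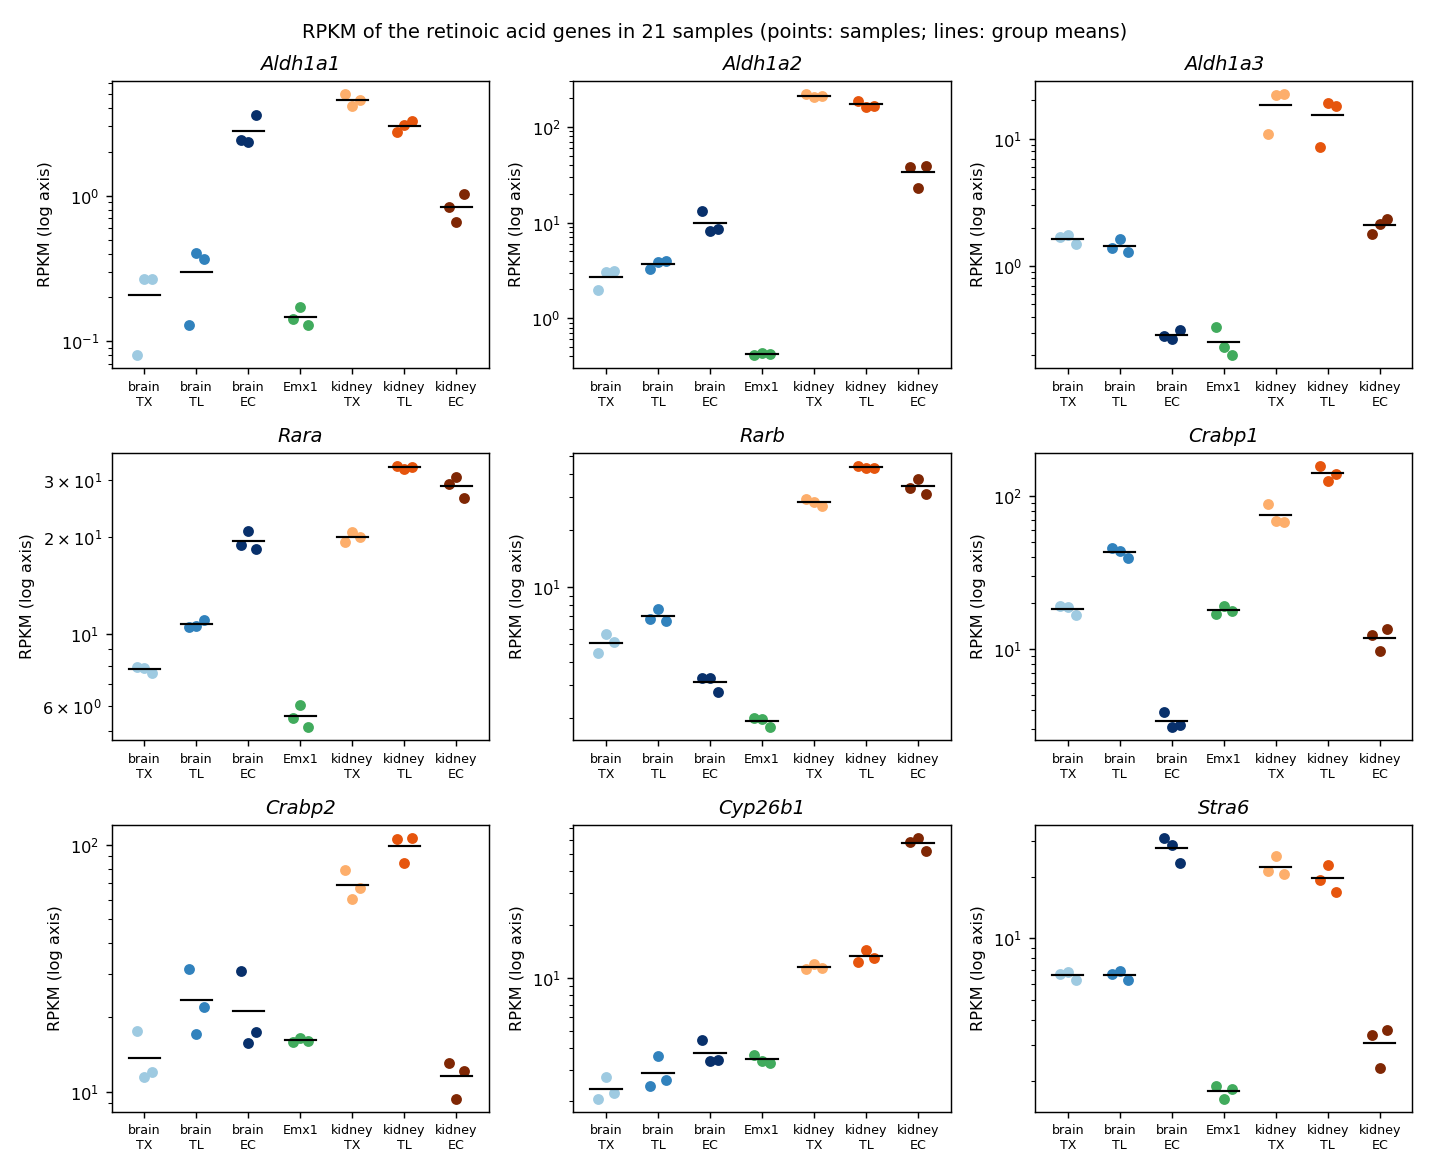
RPKM of each gene (y axis, log scale, a separate range in each panel) in the 3 samples of each group (points) with the group mean (line). TX is transcriptome, TL translatome, EC the endothelial translatome and Emx1 the Emx1-lineage translatome. In the Cyp26b1 panel the kidney EC samples lie at 52.1 to 62.1, above all others, and in the Aldh1a2 panel no neighbouring groups overlap.

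Within a sample the leading gene differed between groups. Crabp1 was first in the brain transcriptome, brain translatome and Emx1 lineage, with 31.3%, 43.3% and 37.5% of the summed RPKM of the 9 genes. Aldh1a2 led both whole-kidney groups with 46.0% in the transcriptome and 32.0% in the translatome. Stra6 led brain EC with 30.1% and Cyp26b1 led kidney EC with 31.4%. Aldh1a1 or Aldh1a3 was last in every group.

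Stra6 (chr9:58063788-58153996, plus strand, GENCODE on GRCm38), the retinol uptake receptor, fell into a high and a low set of groups. The 3 brain EC samples were at 31.0, 28.6 and 23.2 RPKM. The kidney transcriptome was at 21.2, 25.2 and 20.6, and the kidney translatome at 19.1, 22.8 and 16.8. These 3 groups overlapped with their neighbours in the order. The brain transcriptome (6.69, 6.86 and 6.26) and the brain translatome (6.70, 6.88 and 6.23) also overlapped, and kidney EC (3.35, 2.32 and 3.57) and the Emx1 lineage (1.89, 1.64 and 1.84) lay below them without overlap.

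Aldh1a2 (chr9:71215789-71296243, plus strand), the main enzyme of retinoic acid synthesis in the embryo, was ordered without any overlap between neighbouring groups. The kidney transcriptome was at 221, 204 and 210 RPKM and the kidney translatome at 186, 164 and 167. Kidney EC was at 38.6, 22.8 and 39.6, and brain EC at 13.2, 8.19 and 8.63. These populations were above the brain translatome (3.27, 3.90 and 3.97), the brain transcriptome (1.99, 3.02 and 3.11) and the Emx1 lineage, whose 3 samples (0.412, 0.431 and 0.425) rested on only 74, 31 and 51 reads.

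Aldh1a1 (chr19:20492715-20643465, plus strand), a second enzyme of the same step, was low throughout, and only 3 groups had a mean above 1 RPKM. The kidney transcriptome was at 5.00, 4.12 and 4.52 RPKM, and the kidney translatome (2.74, 3.06 and 3.25) overlapped with brain EC (2.44, 2.33 and 3.62). Kidney EC was at 0.832, 0.661 and 1.03. In the brain transcriptome 7, 31 and 28 reads lay on the gene, and this group overlapped with the brain translatome (12, 25 and 23 reads) and with the Emx1 lineage. The near-identical neighbour Aldh1a7 has its own row, and how the authors' counting split shared reads is not given in the sources used here, so the level of Aldh1a1 is uncertain: Aldh1a7 had mean RPKM of 2.10 in the kidney transcriptome, 1.21 in the kidney translatome, 1.22 in brain EC and 0.132 in kidney EC.

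Aldh1a3 (chr7:66390890-66427517, minus strand), the third of these enzymes, was high only in whole kidney, and there replicate 1 was lower than the other 2. In the kidney transcriptome it was at 10.9, 22.2 and 22.5 RPKM and in the kidney translatome at 8.59, 19.1 and 18.0, and replicate 1 of both groups came from the same tissue. Both groups overlapped with each other and with no other group. Kidney EC (1.78, 2.13 and 2.36) lay just above the brain transcriptome (1.69, 1.77 and 1.48), while brain EC (0.284, 0.265 and 0.312) and the Emx1 lineage (0.334, 0.232 and 0.200) overlapped at the bottom.

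The carriers Crabp1 (chr9:54764748-54773110, plus strand) and Crabp2 (chr3:87948666-87953376, plus strand) were both highest in the kidney translatome. Crabp1 was at 157, 125 and 140 RPKM there, 89.0, 68.6 and 68.1 in the kidney transcriptome, and 45.9, 43.8 and 39.3 in the brain translatome. It was lowest in brain EC at 3.85, 3.09 and 3.17. The brain transcriptome and the Emx1 lineage overlapped. Crabp2 was at 105, 84.3 and 107 in the kidney translatome and 78.8, 60.6 and 66.8 in the kidney transcriptome. Below these, the other 5 groups formed an unbroken chain of overlapping ranges, in which replicate 1 was far above replicates 2 and 3 in the brain transcriptome (17.6 against 11.4 and 12.0), in the brain translatome (31.5 against 17.1 and 22.1) and in brain EC (30.8 against 15.7 and 17.4).

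Of the receptors, Rara (chr11:98927818-98974942, plus strand) was at 33.2, 32.4 and 32.9 RPKM in the kidney translatome, 29.2, 30.6 and 26.5 in kidney EC, and 18.9, 20.9 and 18.4 in brain EC, the last overlapping with the kidney transcriptome (19.4, 20.7 and 19.9). It was at 5.51, 6.05 and 5.16 in the Emx1 lineage. Rarb (chr14:16430839-16819156, minus strand) was at 44.1, 43.2 and 42.9 in the kidney translatome, 33.7, 37.8 and 31.4 in kidney EC and 29.4, 28.5 and 27.1 in the kidney transcriptome. In the brain it was at 6.72, 7.67 and 6.63 in the translatome, 4.44, 5.61 and 5.11 in the transcriptome, 3.29, 3.27 and 2.77 in EC and 2.02, 1.98 and 1.80 in the Emx1 lineage, and no neighbouring groups overlapped. Of the 3108 bases of the counted Rarb transcript, 1793 lie in exons of Top2b on the other strand, and the library kit does not mark strand, so reads of the pair cannot be told apart there. Top2b was at a mean of 145.35 RPKM in the brain transcriptome and 92.6 in the kidney transcriptome, the opposite order to Rarb. It was at 155 in the brain translatome and 100 in brain EC. These and the brain transcriptome had the same order in both genes. The Emx1 lineage, lowest in Rarb, was at 157, and the kidney translatome and EC were at 75.6 and 71.0. Rarb averaged 1.23% to 4.51% of Top2b in the brain groups and 30.6% to 57.4% in the kidney groups. The part of Top2b reads in the Rarb results here and below was not tested.

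Cyp26b1 (chr6:84571414-84593908, minus strand), the breakdown enzyme, was at 58.7, 62.1 and 52.1 RPKM in kidney EC, 12.2, 14.4 and 13.0 in the kidney translatome and 11.2, 12.0 and 11.3 in the kidney transcriptome, without overlap. All brain groups were lower and formed a chain of overlaps: 4.46, 3.36 and 3.40 in brain EC, 3.67, 3.39 and 3.30 in the Emx1 lineage, 2.45, 3.58 and 2.64 in the translatome and 2.07, 2.74 and 2.22 in the transcriptome. The related Cyp26a1, whose promoter holds the DR5 shown above, did not reach a mean of 1 RPKM in any group and had a mean of 0.603 in the kidney transcriptome, its highest.

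Kidney and brain were compared first, to see which organ carries more of this RNA. All 9 genes were higher in kidney than in brain, in total RNA and again in TRAP RNA. Differences were tested with edgeR's quasi-likelihood test on the read counts of 6 samples per comparison, adjusted over all genes, with an adjusted p under 0.001 as the threshold. In total RNA 26.3% of the 19841 genes tested were called higher in kidney and 27.2% lower (53.5% in all), and in TRAP RNA 26.2% of 19241 higher and 27.2% lower (53.4% in all). The median log2 fold change of the 9 genes was 2.15 in total RNA and 1.99 in TRAP RNA, beside 0.02 and 0.01 over all genes tested. No member was lower at an unadjusted p under 0.05 or in DESeq2.

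Aldh1a2 had the largest organ difference of the 9, with a log2 fold change of 6.09 ± 0.12 (SE) in total RNA (68.0-fold, adjusted p = 7.29e-12) and 5.35 ± 0.09 in TRAP RNA (40.7-fold). The second largest in total RNA was that of Aldh1a1, at 4.22 ± 0.26 (18.7-fold, adjusted p = 7.04e-08). Aldh1a3 differed by 3.30 ± 0.24 and 3.21 ± 0.25 in the respective RNA. The enzymes of synthesis were thus the members with the largest differences in both kinds of RNA.

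The other members differed less, and the smallest difference in total RNA was that of Rara, at 1.21 ± 0.06 (2.31-fold, adjusted p = 1.24e-08). Rarb, the other receptor, differed by 2.30 ± 0.09 (4.92-fold) and Cyp26b1 by 2.09 ± 0.11 (4.25-fold). Crabp1, Crabp2 and Stra6 differed by 1.86 ± 0.12, 2.15 ± 0.16 and 1.58 ± 0.08. With sequencing lane as a term in the fit of the 12 Sox2Cre samples, all 9 were called in total RNA and 8 in TRAP RNA. Aldh1a1 in TRAP RNA was at 1.43 ± 0.80 with an adjusted p of 0.152. Only brain transcriptome replicate 1 and kidney translatome replicate 3 differed in lane from the rest of their group. The lane term rests on these samples, and brain and kidney shared no lane within either kind of RNA. This fit therefore cannot separate organ from lane with certainty.

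**Figure D2:**
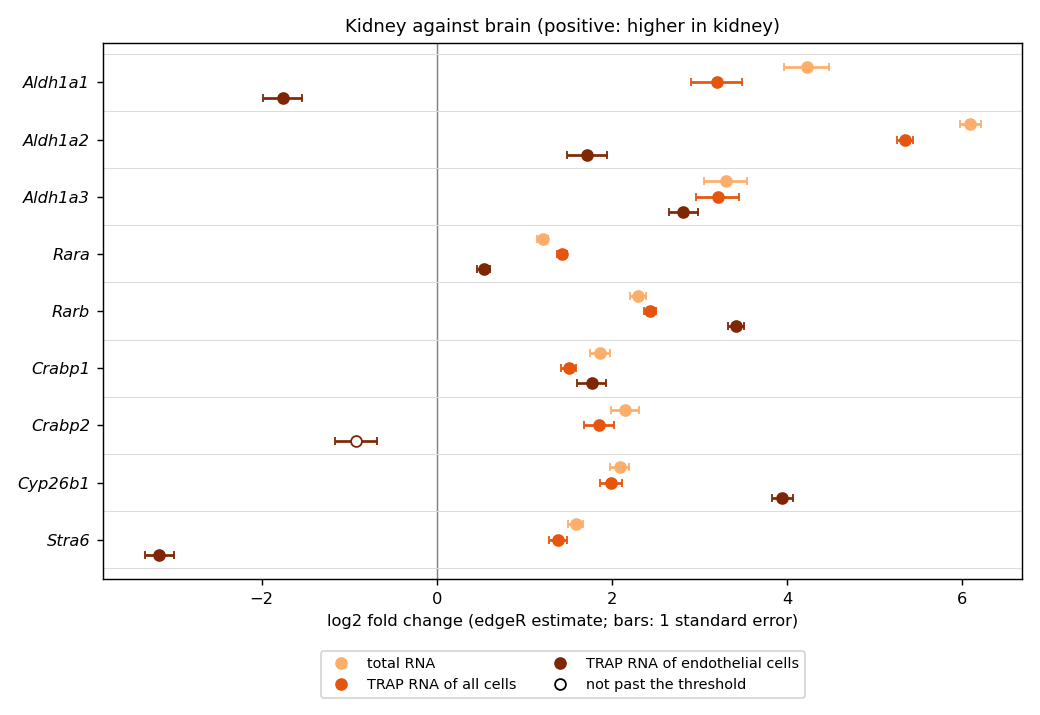
Log2 fold change of kidney over brain (x axis, edgeR estimate, bars of 1 standard error) for each gene (y axis) in total RNA, in TRAP RNA of all cells and in TRAP RNA of endothelial cells; filled points passed an adjusted p of 0.001. All points of total and all-cell TRAP RNA lie right of 0, whereas Aldh1a1 and Stra6 lie left of 0 in endothelial cells, at -1.76 and -3.17.

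Much of the rest of the pathway was higher in kidney too. Of a list of 38 other retinoid genes, 19 were higher and 4 lower in kidney in total RNA, and 17 higher and 4 lower among the 37 tested in TRAP RNA, with list medians of 1.23 and 1.26. Dhrs3, which reduces retinal back to retinol, was at 62.1 RPKM in the kidney and 2.84 in the brain transcriptome (log2 fold change 4.25 ± 0.14, adjusted p = 3.74e-10). Adh1, a retinol dehydrogenase, was at 5.61 and 0.161 (4.86 ± 0.32, adjusted p = 1.33e-07), and Rarres2, named as a gene that responds to the retinoid tazarotene, at 18.5 and 1.05 (3.95 ± 0.15, 1.25e-09). Rdh10, which makes the retinal, was at 33.2 and 6.80. The other way, Ttr, the carrier of the retinol complex in blood and cerebrospinal fluid and a product of the choroid plexus, was at 0.112 RPKM in the kidney and 328 in the brain transcriptome (-11.73 ± 0.16). Cell type markers differed between the organs as well. In total RNA the 4 kidney stroma markers summed to 305 to 316 RPKM in kidney and 75.9 to 77.1 in brain, and the 6 meningeal and perivascular fibroblast markers to 404 to 482 and 83.6 to 94.4, with none at 0. Their part in the members' differences was not tested.

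Translatome and transcriptome of the same tissue samples were compared to see which members are over- or under-represented on ribosomes. The same 3 members, Crabp1, Rara and Rarb, were higher in the translatome in both organs. In the brain 18.6% of the 19446 genes tested were called higher and 18.5% lower (37.1% in all), and in the kidney 14.9% of 19336 higher and 15.8% lower (30.7% in all), against which the 3 of 9 are to be read. No member was called lower in either organ. At an unadjusted p under 0.05 none was lower in brain and 2 were lower in kidney, and DESeq2 called 0 lower in brain and 2 in kidney.

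Crabp1 had the largest of these differences, 1.27 ± 0.08 in brain (2.42-fold, adjusted p = 1.49e-08) and 0.90 ± 0.11 in kidney (1.87-fold, adjusted p = 5.70e-05). Rara differed by 0.51 ± 0.07 in brain (adjusted p = 2.15e-05) and 0.72 ± 0.04 in kidney (2.47e-07). For Rarb the values were 0.50 ± 0.10 (4.52e-04) and 0.62 ± 0.04 (8.78e-07). The brain call of Rarb was lost without transcriptome replicate 1 (0.41, adjusted p = 0.00157), without translatome replicate 1 (0.49, 0.00233), without translatome replicate 2 (0.43, 0.00290) and with a filter of 10 counts in 3 samples (0.48, 0.00109).

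Samples of the same number came from the same tissue, and a fit with the replicate number as a block called more members. In the brain 6 of 9 were then higher, the 3 above with Aldh1a2 (0.50 ± 0.09, adjusted p = 2.91e-05), Crabp2 (0.80 ± 0.08, 4.75e-10) and Cyp26b1 (0.31 ± 0.08, 8.38e-04). In the kidney 5 were higher, with Crabp2 (0.52 ± 0.04, 2.03e-32) and Cyp26b1 (0.20 ± 0.05, 3.74e-05) added. The other 4 were lower under the block: Aldh1a1 at -0.60 ± 0.09 (4.34e-10), Aldh1a2 at -0.30 ± 0.04 (2.17e-14), Aldh1a3 at -0.29 ± 0.05 (4.43e-09) and Stra6 at -0.18 ± 0.05 (1.48e-04). The blocked kidney fit set every gene's spread to the common trend, so its p-values take no account of a gene's own spread.

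Without the block, Crabp2 was at 0.83 ± 0.19 in brain (adjusted p = 0.00198) and 0.52 ± 0.11 in kidney (0.00198), and Aldh1a2 was at 0.48 ± 0.15 and -0.30 ± 0.06 in the same order (0.0172 and 0.00177). Crabp2 was called in brain without transcriptome replicate 1 (1.05, adjusted p = 3.02e-04) or translatome replicate 2 (1.01, 1.38e-04), and in kidney without transcriptome replicate 1 (0.63, 3.21e-04) or translatome replicate 2 (0.63, 4.83e-04). Aldh1a2 was called lower in kidney without translatome replicate 1 (-0.36, 3.30e-04), and higher in brain with sequencing lane as a term (0.89 ± 0.14, 1.10e-04).

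Whether this difference itself differed between organs was tested with an interaction term over the 12 samples, in which 4.12% of 20108 genes were called higher and 2.35% lower (6.47% in all). None of the 9 members passed. At an unadjusted p under 0.05, 4 did (1 higher, 3 lower), and DESeq2 called 1. That member was Aldh1a2, which had risen on ribosomes in brain and fallen in kidney by the blocked fits. Its interaction was -0.74 ± 0.16 with an adjusted p of 0.00329, -0.74 with 9.23e-05 in DESeq2, -0.78 ± 0.09 with 2.07e-08 under the replicate block and -1.24 ± 0.17 with 4.01e-04 with lane as a term. Crabp1 passed only under the block (-0.35 ± 0.08, adjusted p = 7.33e-04).

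Of the 38 other genes, 8 were higher and 1 lower on brain ribosomes among 35 tested. On kidney ribosomes, where all 38 were tested, 5 were higher and 2 lower. Rxrg, an RXR partner of the receptors, was at 9.43 RPKM in the brain translatome and 5.44 in the transcriptome (0.96 ± 0.12). Rarg, the third receptor, was at 34.0 and 20.9 in kidney (0.69 ± 0.08, adjusted p = 4.74e-05). The 5 red blood cell markers summed in the translatome to 98.4 to 192 RPKM in brain and 91.8 to 173 in kidney, against 185 to 428 and 351 to 664 in total RNA, overlapping in brain and lower on ribosomes in kidney, with Hba-a1 listed at 0 in every sample. Those of the choroid plexus were at 522 to 641 in the brain translatome and 338 to 401 in the brain transcriptome, with none at 0. Most of this sum was Ttr, also on the list of other genes, at means of 547 and 328. The part of these cells in the members' differences was not tested.

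In brain EC the uptake receptor and 2 synthesis enzymes were higher than in the brain translatome, and a carrier and 1 receptor were lower. Stra6, Aldh1a1, Aldh1a2 and Rara were called higher and Aldh1a3, Crabp1 and Rarb lower. Over the 19103 genes tested 24.8% were called higher and 21.4% lower (46.2% in all), and the median log2 fold change was 0.65 for the members and -0.01 over all genes. EC and Emx1 populations were compared with the same 3 brain translatome samples, so these comparisons share their controls. In such bulk samples a difference in RNA per cell and a difference in the number of cells of a type cannot be told apart.

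Aldh1a1 rose by 3.59 ± 0.31 (12.0-fold, adjusted p = 2.60e-07). Stra6 rose by 2.33 ± 0.10 (5.02-fold, adjusted p = 2.93e-10). Aldh1a2 was higher by 1.72 ± 0.17 (3.30-fold, 7.87e-07) and Rara by 1.17 ± 0.08 (2.25-fold, 1.50e-08). In all 4 of these genes the lowest brain EC sample lay above the highest brain translatome sample. The 4 were picked by their calls on the same samples, so this separation adds no support.

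In the other direction Crabp1 fell by 3.38 on the log2 scale (SE 0.11, 10.4-fold, adjusted p = 1.95e-11) and Aldh1a3 fell by 2.02 (SE 0.16, 4.07-fold, 1.45e-07). Rarb was at -0.88 ± 0.10 (5.51e-06), but at -0.36 ± 0.11 (adjusted p = 0.0110) when the brain transcriptome was the reference. That reference is total RNA, so the value also holds the translatome-over-transcriptome difference, 0.50 ± 0.10 for Rarb in brain. Crabp2 was at 0.14 ± 0.24 (0.638). Cyp26b1 was at 0.65 ± 0.15 (0.00212) and passed without translatome replicate 2 (0.85, 6.95e-05) or EC replicate 2 (0.72, 6.23e-04), in DESeq2 (0.64, 3.43e-04), in a single fit of 21 samples (0.66, 1.14e-04) and against the transcriptome (0.98, 2.28e-05).

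Markers of meninges and perivascular fibroblasts moved with the genes that rose in brain EC. Of 6 such markers 5 (Foxc1, Col1a1, Col1a2, Dcn and Slc6a13) were higher in every EC sample and Lum was lower. Their summed level was 144.7 to 197 RPKM in brain EC and 88.6 to 102 in the brain translatome, and none was at 0. The median fold of the 6 was 1.57 and the highest 5.62 (Foxc1). Brain EC replicate 1 had the highest sum, and of the members that rose Aldh1a2 and Stra6 were highest in that sample, Rara in replicate 2 and Aldh1a1 in replicate 3. Mural cell markers went the other way, with 4 of 5 lower (Cspg4 was higher in every EC sample, by 4.88-fold on average) and a sum of 20.4 to 24.7 against 39.1 to 51.7 RPKM, and all 5 neural markers were lower, at 352 to 449 against 2005 to 2016. Their part in the result was not tested.

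Of the other retinoid genes 11 were higher and 7 lower in brain EC among 36 tested. Adh1 was at 9.72 RPKM in brain EC and 0.191 in the brain translatome (5.96 ± 0.34, adjusted p = 4.66e-09). Tgm2, a transglutaminase induced by retinoic acid in many cells, was at 30.5 and 3.65 (3.35 ± 0.12), and Dhrs3 was at 19.9 and 4.61. Rxrg was at 0.835 and 9.43 (-3.17 ± 0.13), and Fabp5, a second carrier of the acid, at 12.1 and 80.5 (-2.44 ± 0.22).

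In kidney EC only Cyp26b1, the breakdown enzyme, was called higher than in the kidney translatome, while uptake, synthesis and carrier genes were lower. Aldh1a1, Aldh1a2, Aldh1a3, Crabp1, Crabp2 and Stra6 were called lower, and both receptors passed neither way. The share called over the 18940 genes tested was 16.7% higher and 15% lower (31.7% in all). The members' median log2 fold change was -1.996 and that of all genes -0.04.

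Cyp26b1 rose by 2.51 ± 0.08 (5.71-fold, adjusted p = 9.71e-10), and 12370, 9657 and 10172 reads lay on it in the 3 EC samples. The carriers Crabp1 (-3.21 ± 0.13, 9.26-fold, 7.50e-09) and Crabp2 (-2.74 ± 0.14, 6.67-fold, 3.10e-08) had the largest decreases. Stra6 was at -2.32 ± 0.16 (5.03e-07). The 3 enzymes of synthesis were lower by 2.78-fold (Aldh1a1, -1.47 ± 0.19), 3.99-fold (Aldh1a2, -1.996 ± 0.17) and 5.70-fold (Aldh1a3, -2.51 ± 0.26).

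The receptors depended on the scaling. By RPKM every kidney EC sample was below every kidney translatome sample for both receptors, as the values above show. In the edgeR fit, whose trimmed mean (TMM) scaling sets the bulk of genes equal, Rara was at 0.18 ± 0.06 (adjusted p = 0.0244) and Rarb at 0.01 ± 0.07 (0.866). With total counts as the scale, which moved the median of all genes to -0.41 and the split of calls to 1564 higher and 5655 lower from 3163 and 2837, Rara was at -0.19 (0.0200) and Rarb was called lower at -0.35 (8.39e-04). Against the kidney transcriptome both were called higher, Rara at 0.96 ± 0.05 (2.46e-07) and Rarb at 0.70 ± 0.07 (8.86e-06). This is a change of reference to total RNA and not of scaling. It also holds the kidney translatome-over-transcriptome difference, 0.72 for Rara and 0.62 for Rarb.

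Podocyte markers moved with Cyp26b1 in kidney EC. Nphs1 was at 8.98, 8.47 and 6.45 RPKM in kidney EC and at 2.76, 3.12 and 4.03 in the kidney translatome. Podxl, which endothelial cells also express, was at 189 against 50.8 on average. Both were higher in every EC sample than in every translatome sample. All 6 meningeal and perivascular fibroblast markers, 4 of 4 stromal, 4 of 4 nephron progenitor and 5 of 5 ureteric bud markers were lower, with stroma at 166 to 197 against 400 to 438 RPKM. The part of these cells in the members' differences was not tested.

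**Figure D3:**
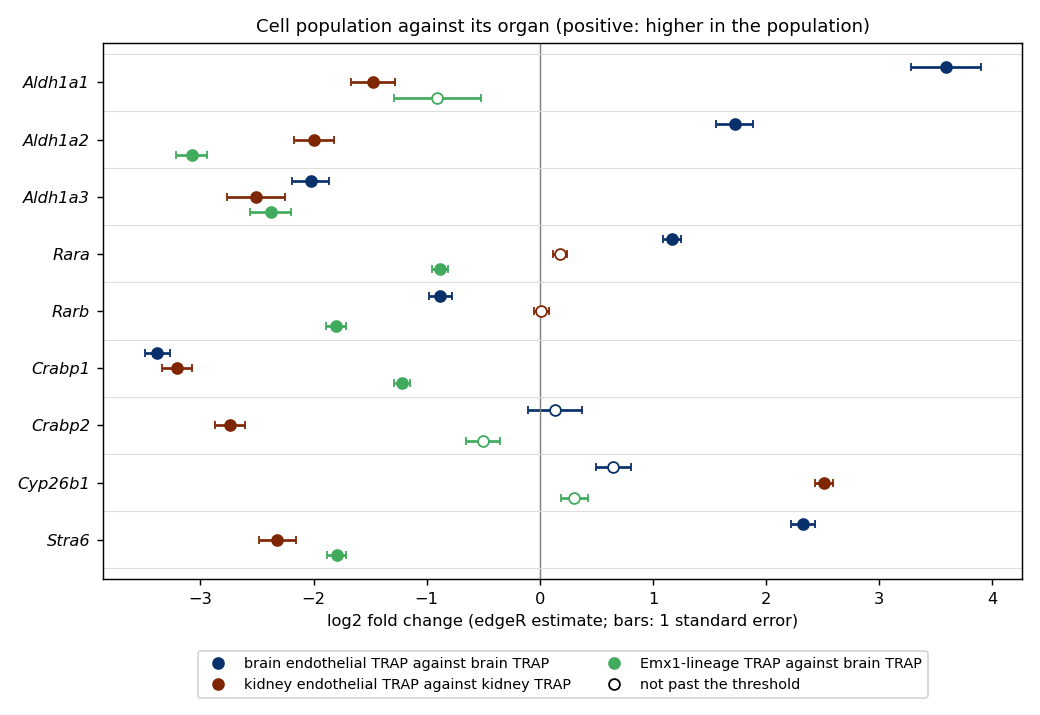
Log2 fold change of each cell population over the translatome of its organ (x axis, edgeR estimate, bars of 1 standard error) for each gene (y axis); open points did not pass an adjusted p of 0.001. Aldh1a1, Aldh1a2 and Stra6 lie right of 0 in brain EC and left of 0 in kidney EC, and Cyp26b1 has the only filled point right of 0 for kidney EC, at 2.51.

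Of the other genes of the pathway 5 were higher and 9 lower in kidney EC. Fabp5 was at 178 RPKM in kidney EC and 57.2 in the kidney translatome (1.99 ± 0.26, adjusted p = 6.53e-05), the opposite direction to brain EC, with an interaction of 4.41 ± 0.40 (1.34e-07). Rdh10 was at 8.99 and 40.8 (-1.82 ± 0.12). Rarres2 was at 3.05 and 27.6 (-2.82 ± 0.17). Ret, a receptor of the ureteric bud whose expression depends on retinoic acid, was at 1.53 and 8.60 (-2.15 ± 0.16). Tgm2, at 23.4 and 11.4, was called higher, as it was in brain EC.

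The difference between the organs in EC against organ translatome was tested with an interaction term over 12 samples (kidney minus brain), and 7 of the 9 members passed. In this test 8.6% of 19764 genes were called higher and 16.5% lower (25.1% in all). Aldh1a1 was at -5.08 ± 0.40 (adjusted p = 2.20e-08), Stra6 at -4.67 ± 0.21 (3.93e-11) and Aldh1a2 at -3.75 ± 0.28 (1.10e-08). These 3 genes were called higher in brain EC and lower in kidney EC. Crabp2 (-2.90 ± 0.33, 1.99e-06) and Rara (-1.02 ± 0.09, 1.22e-07) were lower too.

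Cyp26b1 (1.83 ± 0.18, adjusted p = 4.06e-07) and Rarb (0.87 ± 0.12, 1.11e-05) had a positive interaction. Rarb was not called in kidney EC and was called lower in brain EC. The 2 members that did not pass, Aldh1a3 (-0.52 ± 0.35, 0.273) and Crabp1 (0.14 ± 0.18, 0.596), were lower in EC of both organs. All 7 calls held under the other scalings, the count filter, DESeq2, the replicate block and the single fit of 21 samples, and without any 1 sample. Aldh1a7, which shares sequence with Aldh1a1, also passed, at -4.84 ± 0.67 (1.45e-05).

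Set directly against each other, kidney EC had more Cyp26b1, Rarb, Aldh1a3, Crabp1, Aldh1a2 and Rara than brain EC, and less Stra6 and Aldh1a1. Over the 19238 genes tested 16.9% were higher and 20.1% lower (37% in all). Cyp26b1 differed by 3.94 ± 0.12 (15.4-fold, adjusted p = 7.44e-10) and Rarb by 3.42 ± 0.09 (10.7-fold, 3.81e-10). Stra6 was at -3.17 ± 0.17 (8.99-fold, 5.42e-08) and Aldh1a1 at -1.76 ± 0.23 (5.19e-05). Aldh1a2, higher in brain EC than in its organ and lower in kidney EC than in its organ, was higher in kidney EC, by 1.71 ± 0.23 (3.28-fold, 6.95e-05). Aldh1a2, Aldh1a3 and Crabp1 were at means of 33.7, 2.09 and 11.8 RPKM in kidney EC, against 172, 15.2 and 141 in the kidney translatome. Stromal, nephron progenitor and ureteric bud markers had median folds of 0.229, 0.139 and 0.178 in the same comparison. Podocyte markers were at 2.59. The part of RNA from other kidney cells in the differences between the EC groups was not tested.

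Crabp2 missed the threshold at -0.92 ± 0.24 (adjusted p = 0.00604). It passed with the replicate number as a block (-0.88 ± 0.13, 6.56e-04), in DESeq2 (-0.93, 2.87e-04) and in a single fit of 21 samples (-1.04, 3.94e-04). Among the other retinoid genes 8 were higher and 7 lower in kidney EC, with Fabp5 at 3.83 ± 0.18, and the homeobox genes Meis1 (2.08 ± 0.12) and Meis2 (1.85 ± 0.08), both induced by retinoic acid in limbs, above brain EC.

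In the Emx1 lineage 6 of the 9 members were lower than in the brain translatome and none was called higher. The background was 9.2% higher and 12.8% lower (22.1% in all) of 19006 genes, and the median log2 fold change was -1.22 for the members and 0.00 over all genes. At an unadjusted p under 0.05, 1 member was higher and 8 were lower, and DESeq2 called 0 higher and 6 lower. Aldh1a2 had the largest decrease at -3.08 ± 0.14 (8.44-fold, adjusted p = 1.85e-10). Aldh1a3 followed at -2.38 ± 0.18 (7.59e-08), and Rarb (-1.80 ± 0.09, 5.75e-10) and Stra6 (-1.80 ± 0.08, 2.43e-10) were close to each other.

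Crabp1 was at -1.22 ± 0.07 (4.60e-09) and Rara at -0.88 ± 0.07 (7.33e-08). Against the brain transcriptome neither was called: Crabp1 was at 0.13 ± 0.08 (adjusted p = 0.171) and Rara at -0.30 ± 0.07 (0.00138). That reference is total RNA, so values against it also hold the difference between brain translatome and transcriptome. This difference was 1.27 for Crabp1, 0.51 for Rara and 0.31 for Cyp26b1. For abundant populations such as the Emx1 lineage, the paper concludes that the translatome is the reference to use. Cyp26b1 was at 0.30 ± 0.12 (0.0533), but passed without translatome replicate 2 (0.50, 2.64e-04) and against the transcriptome (0.69 ± 0.10, 1.63e-05). Crabp2 was at -0.50 ± 0.15 (0.0132) and passed without translatome replicate 2 (-0.68, 9.30e-05), while Aldh1a1 was at -0.91 ± 0.39 (0.0702) on 11 to 23 reads per Emx1 sample.

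Markers of cells outside the lineage moved in the same direction. All 8 endothelial, 6 of 6 meningeal and perivascular fibroblast, 5 of 5 mural and 5 of 5 ventral telencephalon markers were lower in every Emx1 sample than in every brain translatome sample. The meningeal sum was 11.9 to 14.3 RPKM against 88.6 to 102 and the endothelial sum 11.4 to 13.7 against 107 to 120, and no marker was at 0. The part of these cells in the members' decreases was not tested. Of the other genes 1 was higher and 9 lower among 35 tested, among them Rxrg (-2.66 ± 0.12), Ttr (-0.69 ± 0.08) and Rdh10 (-0.57 ± 0.08).

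Set side by side, the synthesis enzyme Aldh1a2 and the breakdown enzyme Cyp26b1 ranged from more than 10 times as much of the first to several times as much of the second. The ratio of their RPKM was 19.8, 17.0 and 18.6 in the kidney transcriptome and 15.2, 11.4 and 12.9 in the kidney translatome. In kidney EC it was 0.658, 0.368 and 0.760, so each of these samples held more Cyp26b1 than Aldh1a2. In the Emx1 lineage it was lowest, at 0.112, 0.127 and 0.129. Brain EC was at 2.95, 2.44 and 2.53, above the brain translatome (1.33, 1.09 and 1.51) and the brain transcriptome (0.962, 1.10 and 1.40), which overlapped.

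**Figure D4:**
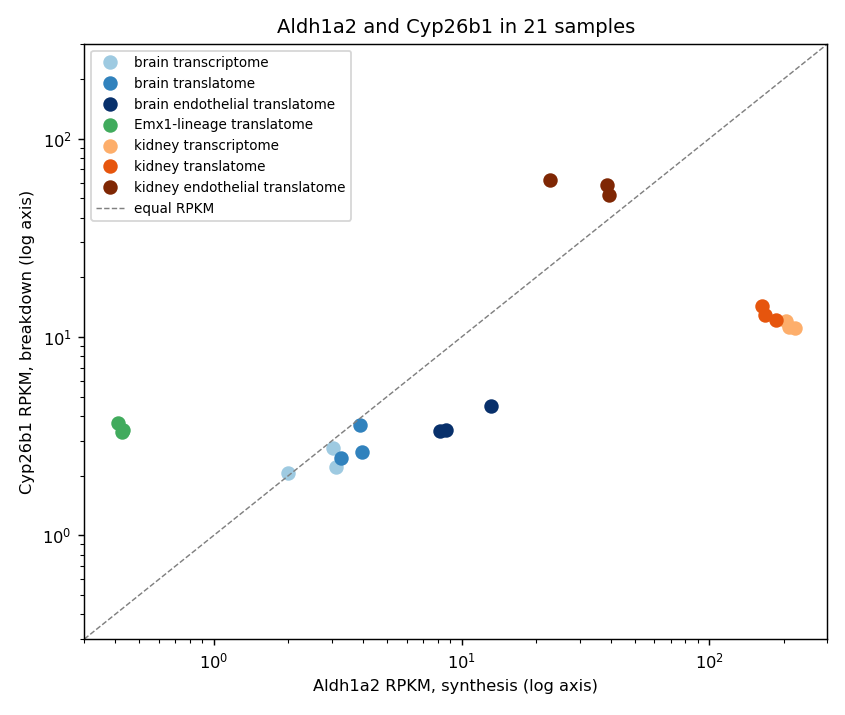
RPKM of Aldh1a2 (x axis, log scale) and of Cyp26b1 (y axis, log scale) in each of the 21 samples, coloured by group; the dashed line marks equal RPKM. The kidney EC and Emx1-lineage samples lie above the line, with mean ratios of 0.595 and 0.123, and the whole-kidney samples lie far below it.

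Within each gene family the leading member also changed. Aldh1a2 made up 90.2% ± 2.72 (SD, n = 3) of the summed RPKM of the 3 Aldh1a enzymes in the kidney transcriptome, 90.3% ± 3.40 in the kidney translatome and 91.6% ± 2.32 in kidney EC. In the brain transcriptome it made up 58.9% ± 5.56, with Aldh1a3 at 36.8% ± 7.38. In brain EC the share of Aldh1a3 was 2.25% ± 0.393 and that of Aldh1a1 21.9% ± 6.73. The sum of the 3 was 235 ± 4.00 RPKM in the kidney transcriptome and 0.826 ± 0.067 in the Emx1 lineage.

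For the receptors, Rarg was added to complete the family. It held 52.9% ± 0.986 in brain EC, 49.2% ± 0.760 in kidney EC, 42.0% ± 2.60 in the Emx1 lineage, and 23.8% to 30.7% on average in the 4 whole-organ groups. Rarb held 40.9% ± 0.950 in the kidney transcriptome but 6.51% ± 0.382 in brain EC. Crabp1 held between 50.6% and 65.1% of the CRABP pair on average in 6 groups and 14.3% ± 2.84 in brain EC, where Crabp2 was the leading carrier.

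The genes with the pattern most like each member were taken as those with the highest Pearson r of log2(RPKM + 1) over the 21 samples, among 11517 or 11518 genes. Samples of a group share organ and genotype, so the points are not independent and r is a description, and with a pseudocount of 0.1 in place of 1 the first gene was another one for 6 of the 9 members (all but Aldh1a3, Rara and Stra6). For Aldh1a2 they were Bicc1 (r = 0.994) and the transcription factor gene Foxd2 (0.993), both highest in the kidney translatome. For Cyp26b1 they were Btnl9 (0.987) and the endothelial scavenger receptor gene Stab2 (0.985), highest in kidney EC, and for Stra6 they were Ptgis, the prostacyclin synthase gene (0.971), and Egflam (0.946), highest in brain EC. Aldh1a3 was most like Calb1 (0.982), a marker of the ureteric bud on the list used here, and Glb1l2 (0.975). Aldh1a1 was most like Fgfr4 and Il17rd (both 0.978), Rara like Cd59a (0.992) and Rps6ka4 (0.982), and Rarb like Dse (0.985) and Sulf2 (0.983). Among the carriers, Crabp1 was most like Lbh and Rasl12 (both 0.974) and Crabp2 like Bdh2 (0.970) and Prrx2 (0.968).

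Among the 9 genes themselves r over the 21 samples ran from -0.06 for Cyp26b1 and Stra6 to 0.89 for Aldh1a2 and Rarb. Aldh1a2 and Aldh1a3 were at 0.88 and Aldh1a1 and Stra6 at 0.84. Cyp26b1 was at 0.14 with Crabp1 and 0.12 with Crabp2.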

How the data were processed

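RNA was sequenced with a poly(A) kit that does not mark strand. Per the study's methods the authors aligned reads with RUM to mm10 and counted them with rpkmforgenes on UCSC refGene; the deposited count is the number of reads per gene, not normalized, and the RPKM values were computed by the authors with the same program. No per-sample column was left unused. Counts were tested with edgeR 4.0.16 (R 4.3.3; quasi-likelihood test, TMM, rows with at least 1 count, Benjamini-Hochberg over all rows, adjusted p under 0.001, standard error as the log2 fold change over the root of F) in fits of 6 samples per pair of groups and 12 per interaction. On simulated counts for 19538 genes of the kidney and brain transcriptome comparison, 87 of 100 genes changed 2-fold and 100 of 100 changed 4-fold were called in the right direction, and for the interaction of organ with translatome against transcriptome (19833 genes) 75 and 95 of 100. The changed genes were drawn only from rows with many reads, and all other genes were given equal means in the groups. These rates therefore do not cover genes with few reads or comparisons in which many genes differ. RPKM levels were described by group mean ± SD, and neighbours in the order were said to overlap where their sample ranges did.

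The 9 members, the list of 38 other retinoid genes, the cell type markers and the tests were chosen with earlier results of these data known. The text names the members, most of the listed genes that had the largest changes of a comparison among those with a mean of at least 5 RPKM in a group, and the 2 genes most like each member. It also names some listed genes, markers and the paralog Aldh1a7 and the overlapping Top2b chosen after their values were seen. Some listed genes and markers are not reported here. Gene positions are those of GENCODE vM21 on GRCm38. Alternatives were other scalings (relative log expression, total counts), a filter of 10 counts in 3 samples, DESeq2 1.42.0, the replicate number as a block, 1 fit of 21 samples, summing rows of a symbol, a pseudocount of 0.1 and leaving out each sample. Sequencing lane as a term and the organ transcriptome as reference were added after seeing the data. The transcriptome reference sets TRAP RNA against total RNA, so values against it also hold the difference between translatome and transcriptome. The study's sample table ties translatome and transcriptome of a number to the same tissue, and deviations from group means correlated between same-numbered samples (r = 0.386 to 0.617 in brain, 0.552 to 0.622 in kidney, 0.173 to 0.347 between the EC groups). Whether numbers stand for separate litters is not given in the sources used here, so p-values measure the spread between these samples. The lowest chi-square per gene between replicates was 4.91, so no 2 samples looked like 1 library.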

Additional observations from a re-analysis of the deposited data

Results flagged for a closer look

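The change from organ translatome to endothelial translatome differed between kidney and brain in 7 of the 9 genes, by an interaction term over 12 samples in edgeR (log2 scale, kidney minus brain). It was lower in kidney for Aldh1a1 (-5.08), Stra6 (-4.67), Aldh1a2 (-3.75), Crabp2 (-2.90) and Rara (-1.02), and higher for Cyp26b1 (1.83) and Rarb (0.87). Rarb was not called in kidney EC (0.01) and was called lower in brain EC (-0.88), whereas Cyp26b1 was called higher in kidney EC (2.51). Each group had a sequencing lane of its own on the endothelial side, so lane and population cannot be told apart. No outlier test was run, since groups had 3 samples.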

How the results depend on the processing

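With relative log expression scaling or with rows of a symbol summed, all 90 member values kept their direction and their side of the threshold. They did so in 84 of 90 with DESeq2, 88 of 90 with the count filter, 78 of 90 with the replicate block, 87 of 90 in the single fit and 87 of 90 with total counts, in 627 of 648 fits without 1 sample, in 38 of 45 with lane as a term and in 19 of 27 against the organ transcriptome. The cause was not tested for any change.

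The replicate block raised members higher on brain ribosomes to 6, and on kidney ribosomes to 5 higher and 4 lower (all genes 4636 and 4860). In the organ difference of translatome against transcriptome it gave 2 members lower and 1978 and 1467 genes higher and lower, and in the Emx1 comparison 1116 genes higher. It changed no other call than these and Crabp2 between the EC groups. DESeq2 gave 2 members lower on kidney ribosomes, 1 lower in that organ difference (1564 and 1113 genes) and 2732 genes higher in the EC organ difference. The filter left 1164 genes higher in the Emx1 lineage. With total counts, 1564 and 5655 genes were called in kidney EC, Crabp2 in brain EC was at -0.16, and Rara and Rarb in kidney EC were at -0.19 and -0.35. Rarb there was at -0.0058 with the filter and -0.0128 in the single fit.

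With lane as a term, 3434 and 3239 genes were called between the organs' total RNA, 2024 lower on kidney ribosomes and 325 and 82 in the organ difference of translatome against transcriptome, with 1 member lower. Stra6 on brain ribosomes was at -0.0079, and in that organ difference Aldh1a3 was at 0.20, Rarb at -0.0606 and Crabp2 at 0.20. Against the transcriptome 3 members were higher in kidney EC and 1 in the Emx1 lineage (4952 and 4641 genes), with Crabp1 at 0.13 and Crabp2 at 0.41 there.

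Without 1 sample, genes higher in the Emx1 lineage ranged from 1110 to 1444 and its members higher from 0 to 1, members lower on kidney ribosomes from 0 to 1, and genes lower in the organ difference of translatome against transcriptome from 255 to 437. Values not called changed sign: Crabp2 in brain EC (-0.23 to 0.41), Stra6 on brain ribosomes (-0.0163 to 0.0615), Rarb in kidney EC (-0.0471 to 0.0684), Aldh1a3 on kidney ribosomes (-0.555 to 0.0116), and Aldh1a3 (-0.36 to 0.20) and Cyp26b1 (-0.22 to 0.10) in that organ difference.

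On TMM-scaled reads the order of groups changed for 5 members, in 12 of 63 places. The highest over the next group mean was 0.901 for Rara (kidney EC then first), 1.01 for Rarb, 5.60 for Cyp26b1 and 1.70 for Stra6. With 3 samples a group and 7 to 31 reads on Aldh1a1 in the brain transcriptome, small differences of low genes were not detectable.

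Total counts moved the median of all genes to -0.30 in brain EC (3397 higher and 6002 lower, from 4740 and 4084) and to 0.20 between the organs in total and TRAP RNA. In the Emx1 comparison they gave 1183 higher and 2778 lower, from 1749 and 2442.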
